A study of Mus musculus with 8 samples.

Results

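The replication-dependent histone genes were taken as the gene entries whose symbol begins with Hist1h to Hist4h followed by a histone type (1, 2a, 2b, 3 or 4), with 1 entry for each symbol on a main chromosome. The rule found 70 genes among 50902, and it used no measured value. By symbol, 6 are genes of the linker histone H1, 20 of H2A, 19 of H2B, 12 of H3 and 13 of H4. By cluster, 56 are Hist1 genes on chromosome 13, 10 are Hist2 genes on chromosome 3, 3 are Hist3 genes on chromosome 11, and 1 is Hist4h4 on chromosome 6. GENCODE vM21 annotates 67 of them as protein coding and 3 as pseudogenes.

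The libraries came from E14 mouse embryonic stem cells (ESCs) that carried Flag- and HA-tagged BAZ2A inserted by PiggyBac transposase, in a form resistant to the siRNA against Baz2a. In 4 libraries the transgene was wild type (ESC + F/H-BAZ2Ar_WT, here WT), and in 4 it lacked the TAM domain (ESC + F/H-BAZ2Ar_ΔTAM, here ΔTAM), the part of BAZ2A that binds RNA. Both lines received siRNA-Baz2a and were collected 3 days later, and polyA-selected RNA was sequenced in reads of 100 nt. The comparison asks which transcripts differ when the TAM domain is missing. Each condition was a separately derived single-cell clone, so the clone and the TAM deletion cannot be told apart. The labels do not state separate cultures for the replicates, so p-values measure only the spread between these libraries, which may be technical.

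Replication-dependent histone genes supply the histones that package newly copied DNA. They lie in clusters, mostly lack introns and are transcribed chiefly in S phase. Their mRNAs usually end at a conserved stem-loop that is bound by SLBP, and not in a polyA tail. After cleavage the mature mRNA therefore lacks the feature by which polyA selection captures RNA, while some of the genes also produce longer, polyadenylated transcripts. The replication-independent variants, such as H2A.Z and H3.3, are encoded by separate genes with ordinary polyadenylated mRNAs, although H2afx gives both a stem-loop-ended and a polyadenylated mRNA.

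The stem-loop was read from the transcripts, because it is the sequence that sets these mRNAs apart in a polyA-selected library. After the stop codon, on the transcript strand, 46 of the 70 genes held an arm GGNNNT, a loop TNTN and an arm ANNNCC in direct succession, at 21 to 58 nt from the stop codon. The same letters occurred anywhere in 2.69% of all 141767 GENCODE vM21 (GRCm38) transcripts. Of the 24 genes without a match, 16 have no annotated 3′ UTR. The search had nothing to read there, except in the 3 pseudogenes among them, which have no annotated stop codon and were read in full. The stem-loops of 6 genes described further on are printed 5′ to 3′ with 5 flanking bases on each side, and the capitals mark the 16 letters of the stem-loop.
Hist1h1c: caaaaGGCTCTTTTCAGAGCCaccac
Hist1h2bk: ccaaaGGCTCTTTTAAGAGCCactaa
Hist1h2bm: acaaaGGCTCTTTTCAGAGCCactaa
Hist1h3c: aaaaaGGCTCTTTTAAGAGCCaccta
Hist1h4d: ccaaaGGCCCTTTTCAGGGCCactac
Hist1h4i: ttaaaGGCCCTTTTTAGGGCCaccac
The H4 genes had their own stem letters. The form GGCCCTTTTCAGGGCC was present in 7 H4 genes, whereas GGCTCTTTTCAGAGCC was shared by 3 H1, 10 H2A, 8 H2B and 5 H3 genes.

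The polyadenylation signal AATAAA was found in the last 40 bases of an annotated transcript for 15 of the 70 genes. Of these, 12 also had a stem-loop match and 3, Hist1h2bq, Hist1h2br and Hist2h2be, had none. The ends of 3 of the 15 are shown because their genes recur in the results, with AATAAA in capitals.
Hist1h1c: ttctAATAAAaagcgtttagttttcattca
Hist1h2ae: ctccAATAAAtgggtcaatttttttcagat
Hist2h2be: tattAATAAAgttaccgattagtttc
The Hist1h1c transcript continues for 840 nt beyond its stem-loop, and Hist1h4d for 770 nt without AATAAA near its end.

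Coding sequences of these genes are so alike that a whole read can fit several of them. A 100-base window of H2A sequence is shown because it is present without a change in 14 genes, and a window of H4 sequence because it is present in 9.
H2A: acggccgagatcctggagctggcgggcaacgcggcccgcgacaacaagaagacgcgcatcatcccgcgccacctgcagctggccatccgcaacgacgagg
H4: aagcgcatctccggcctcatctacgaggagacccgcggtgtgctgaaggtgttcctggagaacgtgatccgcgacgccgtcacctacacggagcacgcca
How reads with several places in the genome were treated was not stated, so values of genes with near-identical copies are uncertain. Of the 70 genes, 41 had at least 50% of their 100-base windows in no other gene and 29 had less. Transcripts of other genes overlapped the exons of 26 members, and the use of strand in the counting was not stated, so reads of such pairs cannot be told apart.

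Each library held between 6565584 and 8669124 reads on genes, recovered from the steps of the deposited RPKM on the reading that 1 step is 1 read. Baz2a, the gene of the design, was at 10.5 ± 0.529 RPKM in WT and 18.3 ± 0.824 in ΔTAM (SD, n = 4 each), and these values do not separate the transgene from the endogenous gene. All 8 ESC markers were detected and passed the filter on low values, whereas 2 of 14 markers of differentiated and feeder cells did. Among the 8 ESC markers 4 were lower in ΔTAM and none higher, where 16% of all genes tested were called lower and 19.9% higher, with Sox2 at a log2 fold change of -0.42 (SE 0.03, limma adjusted p = 6.8e-05). The markers of differentiated and feeder cells did not move one way. Their summed level, most of it from T and Eomes, was 59.4 ± 1.23 RPM (reads in 1000000 gene reads) in WT and 54.2 ± 4.54 in ΔTAM (SD, n = 4 each), without overlap, and 1 of the 2 tested was lower, Eomes at -0.26 (SE 0.08, limma adjusted p = 0.0359). That call did not hold without WT replicate 1, 2 or 4 or ΔTAM replicate 1, 2 or 4 (adjusted p up to 0.0901). Below the filter, Sox1 was lower in ΔTAM without overlap, and Gata4 (0.00839 against 0.0112 RPKM) and Gata3 (0.0018 against 0.00499 RPKM) were higher without overlap. WT replicate 2 stood apart in RNAs without a polyA tail, with 69 reads on that list of 16 RNAs against 33 to 36 in the other WT libraries and 25 to 33 in the ΔTAM libraries. In RPM this list was at 4.31 to 8.97 in WT and 3.63 to 4.11 in ΔTAM, without overlap.

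Histone reads were scarce in every library. The 70 genes together held 144, 189, 146 and 134 reads in WT replicates 1 to 4, and 147, 119, 147 and 161 reads in ΔTAM replicates 1 to 4. In RPM this was 20.4 ± 2.99 in WT and 19.3 ± 1.79 in ΔTAM (SD, n = 4 each), and the groups overlapped. Pooled ratios here and below divide reads by the library total in the deposited RPKM and not by gene reads. The pooled ΔTAM to WT ratio was 0.942, with an exact 95% interval of 0.839 to 1.06 that covers counting error only. A difference in the summed histone reads was thus not detected. WT replicate 2 was the highest of all libraries in this sum as well as in RNAs without a polyA tail, and its part in the result was not tested. Without it, the log2 ratio of the summed RPM moved from -0.08 to 0.02. In bulk samples, fewer cells of a type and less RNA per cell cannot be told apart.

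Of the 70 genes, 18 were at 0 in all 8 libraries, and 11 were above 0 in every library. Another 5 had a single read in all. The mean was 2.12 reads per gene and library, and 3 genes averaged at least 10 reads. These were Hist1h2bc, Hist1h1a and Hist1h1c. The 10 genes with the most reads held 69.1% of all reads on the members. A gene at 0 may still have a level of up to 3 reads, so these values do not show that it is silent.

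**Figure D1:**
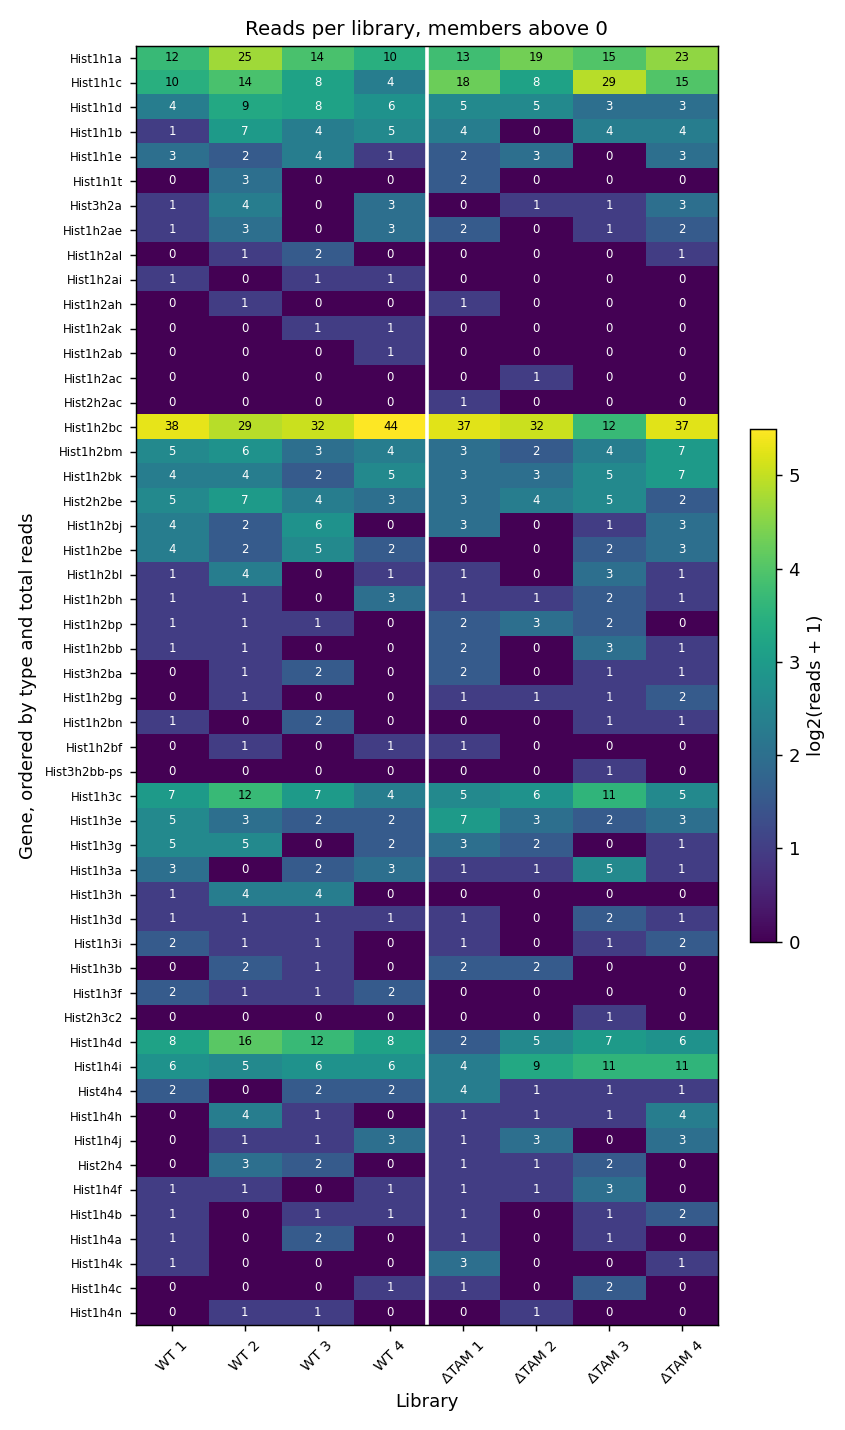
Reads per library (columns) for the 52 genes above 0 (rows, ordered by histone type and total), with the count printed in each cell and the color giving log2(reads + 1). Most cells hold fewer than 10 reads, and Hist1h2bc has the highest count, 44 in WT replicate 4.

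By histone type, H2B held 38.7% of the member reads, H1 28.0%, H4 16.8%, H3 13.2% and H2A 3.29%. H2A, which pairs with H2B in the nucleosome, stood far below it, with 39 reads over 8 libraries against 459. Per kilobase of annotated exon these were 3.01 reads for H2A and 22.4 for H2B. Of the 20 H2A genes 11 were at 0 throughout, against 4 of 19 H2B genes. The single gene Hist1h2bc supplied 261 of the H2B reads.

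Linker histone genes (H1) held 30, 60, 38 and 26 reads in WT and 44, 35, 51 and 48 in ΔTAM. The pooled ratio of 1.16 had an interval of 0.932 to 1.45. In RPM the groups overlapped only through WT replicate 2, at 7.80, above every ΔTAM library (5.33 to 6.56), while the other WT libraries were below them (3.40 to 5.23).

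Core histone sums also overlapped between groups. H2B had 65, 60, 57 and 63 reads in WT and 59, 46, 43 and 66 in ΔTAM, a ratio of 0.878 (0.728 to 1.06). H3 had 26, 29, 19 and 14 reads in WT and 20, 14, 22 and 13 in ΔTAM, a ratio of 0.789 (0.567 to 1.09). H4, the most conserved histone, had 20, 31, 28 and 22 reads in WT and 20, 22, 29 and 28 in ΔTAM, a ratio of 0.986 (0.739 to 1.31). The interval was widest for H2A, at 0.271 to 1.13 around a ratio of 0.563. These intervals include no difference, and they also include changes of the size printed as their bounds.

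**Figure D2:**
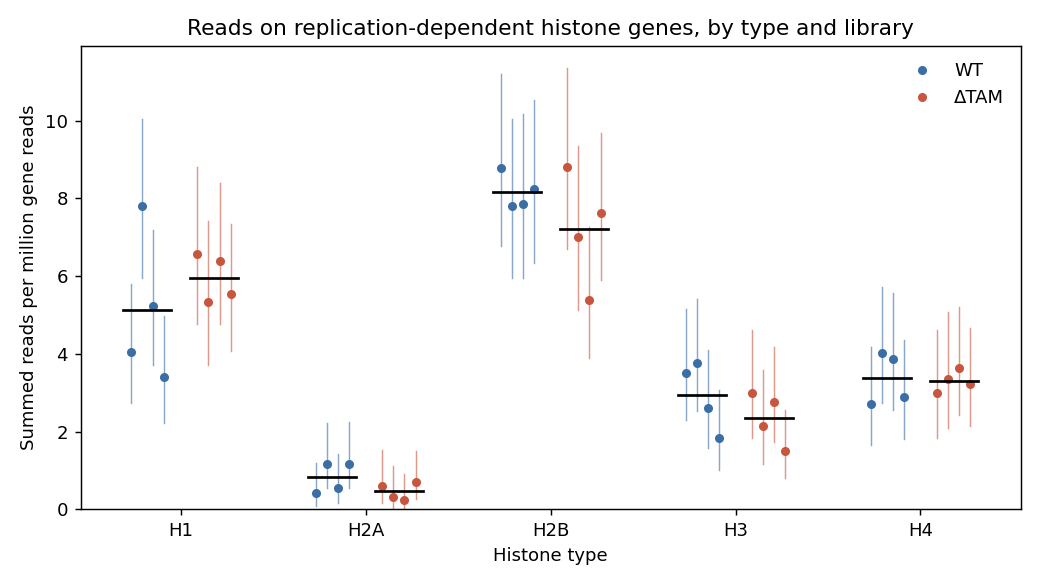
Summed RPM of gene reads (vertical axis) for each histone type (horizontal axis) in the 4 WT and 4 ΔTAM libraries. Points are libraries with exact 95% binomial intervals for counting error, and black lines are group means; the groups overlap for every type.

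By cluster, Hist1 held 93.4% of the member reads. Within it, the 29 genes at chr13:23531050-23764406 (mm10) held 862 reads, the 19 genes at chr13:21715763-21837530 held 131, and the 5 genes at chr13:22035164-22043676 held 112. Per kilobase of exon, the small block of 5 genes was the highest, with 43.8 reads against 24.3 in the large block and 10.7 in the block of 19. The pair of genes at chr13:23933773-23934851, Hist1h2ba and Hist1h2aa, was at 0 in all libraries. Hist2 held 44 reads over 8 libraries, Hist3 21 and Hist4h4 13. No cluster differed between the groups beyond their overlap, and the pooled ratio was 0.944 (0.838 to 1.06) for Hist1 and 0.838 (0.439 to 1.58) for Hist2.

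Few of the genes were abundant enough for a test of each gene. The filter, a mean of at least 0.1 RPKM, was passed by 8 of the 70 genes, and 44 others had reads but fell below it. Hist1h2bc, the gene with the most reads, was among the latter, because the deposited RPKM divides by the whole gene span, 8.71 kb, although its annotated exons span 1156 nt. Over all 9002 genes tested with limma, 16% were called lower in ΔTAM and 19.9% higher (adjusted p under 0.05). Among the 8 histone genes 1 was called lower, Hist1h4d, which passed the filter only through the WT libraries, where it was high, and 0 were called higher. At an unadjusted p under 0.05 there was likewise 1 gene. The median log2 fold change of the 8 was 0.04, on the log2(RPKM + 0.1) scale, beside 0.01 over all genes tested, and 4 were above 0 and 4 below. These are descriptions, since Hist1h4d and Hist1h2bj (0.131 RPKM in WT and 0.074 in ΔTAM, log2 fold change -0.34, limma adjusted p = 0.593) passed the filter only through WT.

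Hist1h4d, an H4 gene at chr13:23581598-23582735, held 8, 16, 12 and 8 reads in WT and 2, 5, 7 and 6 in ΔTAM. All WT libraries were above all ΔTAM libraries. Its level was 0.192 ± 0.0655 RPKM in WT and 0.0864 ± 0.0333 in ΔTAM (SD, n = 4 each). The log2 fold change was -0.64 (SE 0.19, limma adjusted p = 0.0332). The ΔTAM mean lay under the filter of 0.1 RPKM, so the gene was tested only through its WT values, and its call is no support for a change. An exact permutation test of 4 against 4 libraries cannot go below p = 0.0286, the value that such a separation gives. Every 100-base window of its transcript occurred in no other gene. The call did not hold without WT replicate 2 (limma adjusted p = 0.0724), WT replicate 3 (0.0809), or ΔTAM replicate 1 (0.0614), 2 (0.054) or 4 (0.0642). It was also lost when all genes above 0 were tested (adjusted p = 0.0786).

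Hist1h4i, the other H4 gene with the highest RPKM, held 6, 5, 6 and 6 reads in WT and 4, 9, 11 and 11 in ΔTAM. ΔTAM replicate 1 lay below WT, and the other ΔTAM libraries lay above it. The log2 fold change was 0.36 (SE 0.18, limma adjusted p = 0.153), and without ΔTAM replicate 1 it was 0.55 with an adjusted p of 9.5e-04. The H4 genes Hist1h4d and Hist1h4i thus had fold changes of opposite sign, and their difference was not tested.

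Among the linker histones, Hist1h1a held 12, 25, 14 and 10 reads in WT and 13, 19, 15 and 23 in ΔTAM. Its log2 fold change of 0.21 had an SE of 0.23 (limma adjusted p = 0.52). Hist1h1c held 10, 14, 8 and 4 reads in WT and 18, 8, 29 and 15 in ΔTAM. In RPKM the groups overlapped through ΔTAM replicates 2 and 4, both below WT replicate 2, and ΔTAM replicate 3 was the highest. The log2 fold change of Hist1h1c was 0.56 (SE 0.26, limma adjusted p = 0.135), and the test on recovered reads gave 0.94 (SE 0.37, limma voom adjusted p = 0.0424). That test covered 12659 genes, of which 21.8% were called higher and 22% lower in ΔTAM, and 3 of the histone genes, with no other called. Hist1h1c averaged under 10 reads in WT, so it passed that filter of 10 reads only through ΔTAM, where it was high. Its call is no support for a change.

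Hist1h2bc, an H2B gene that was named after its values were seen, held 38, 29, 32 and 44 reads in WT and 37, 32, 12 and 37 in ΔTAM. A single library, ΔTAM replicate 3, was low, and the others overlapped. On recovered reads the log2 fold change was -0.40 (SE 0.28, limma voom adjusted p = 0.268). Hist1h2bm held 5, 6, 3 and 4 reads in WT and 3, 2, 4 and 7 in ΔTAM, and Hist1h2bk held 4, 4, 2 and 5 in WT and 3, 3, 5 and 7 in ΔTAM. Neither was called (limma adjusted p = 0.592 and 0.545). In Hist1h2bk 29.2% of the windows occurred in no other gene, so its few reads are uncertain.

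Hist1h3c, which encodes an H3 protein, held 7, 12, 7 and 4 reads in WT and 5, 6, 11 and 5 in ΔTAM. The groups overlapped, and the log2 fold change was -0.08 (SE 0.25, limma adjusted p = 0.827). Hist1h3g held 5, 5, 0 and 2 reads in WT and 3, 2, 0 and 1 in ΔTAM and fell below the filter. The H3 genes at 0 in all ΔTAM libraries were picked out after their values were seen. Hist1h3f held 2, 1, 1 and 2 reads in WT and none in ΔTAM. Hist1h3h held 1, 4, 4 and 0 in WT and none in ΔTAM. The exact 95% interval of the ΔTAM to WT ratio, for counting error only, reached up to 0.854 for Hist1h3f and 0.509 for Hist1h3h, and in Hist1h3h 8.01% of the windows occurred in no other gene. When every gene above 0 was tested, Hist1h3f was the only one of 52 histone genes called (limma adjusted p = 0.00729), where 7.14% of 25439 genes were called lower and 7.63% higher. It entered that test only through its WT reads, and its ΔTAM values, all 0, have no spread, so the call is no support for a change. Groups that did not overlap, with ΔTAM lower, were seen for Hist1h4d and Hist1h3f, 2 of the 49 members above 0 with a mean under 10 reads, and for 1.86% of all 12780 such genes. None of the 49 had ΔTAM higher without overlap, beside 2.43% of all such genes.

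**Figure D3:**
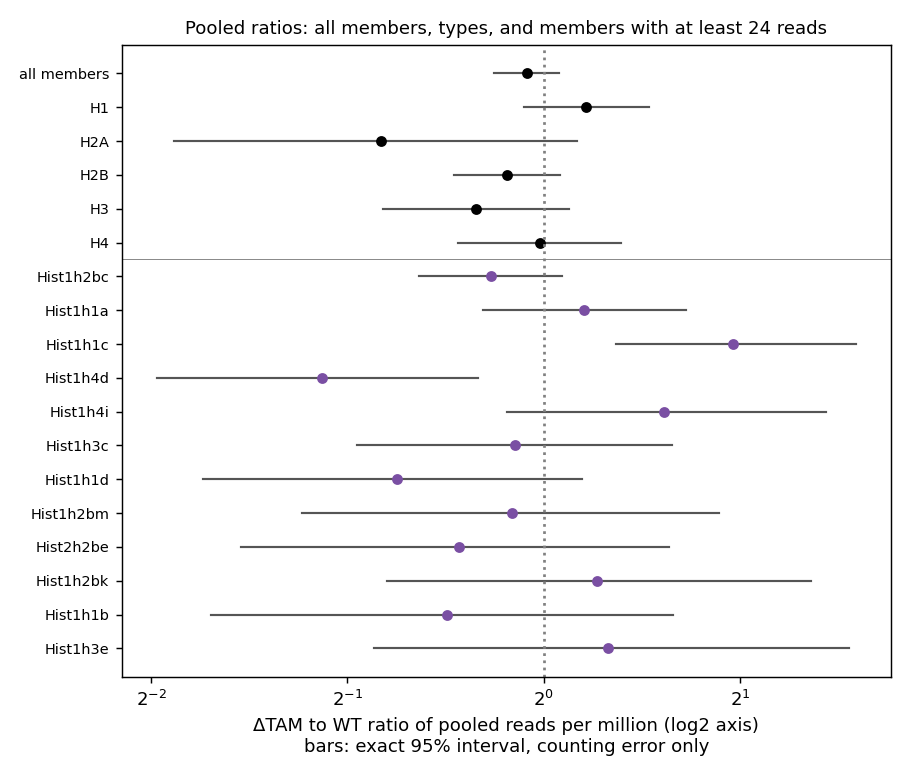
Pooled ΔTAM to WT ratio of reads over the library total (log2 axis) for all members, each histone type and the genes with at least 24 reads. Bars are exact 95% intervals for counting error. The interval lies below 1 for Hist1h4d (0.255 to 0.792) and above 1 for Hist1h1c (1.29 to 3.01), and it includes 1 for the other genes and all types shown.

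H2A genes had too few reads for a test. Hist1h2ae, the H2A gene with the highest mean RPKM, held 1, 3, 0 and 3 reads in WT and 2, 0, 1 and 2 in ΔTAM. The pseudogene Hist1h2al held 0, 1, 2 and 0 reads in WT and 0, 0, 0 and 1 in ΔTAM. No direction can be read from such counts. Outside Hist1, Hist2h2be, an H2B gene with an AATAAA end that was named after its values were seen, held 5, 7, 4 and 3 reads in WT and 3, 4, 5 and 2 in ΔTAM.

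Genes with more sequence of their own held more reads per length. The 5 genes without a 100-base window of their own, in Hist2, were at 0 in all libraries. Their exons overlap those of other annotated genes, and windows shared in this way were also counted as shared. Of the 29 genes with under 50% of windows of their own 16 were at 0, against 2 of the other 41. Per kilobase of exon the former held 5.23 reads and the latter 22.1. The treatment of reads with several places was not stated. Its part in this difference was not tested, and neither was that of overlapping genes.

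**Figure D4:**
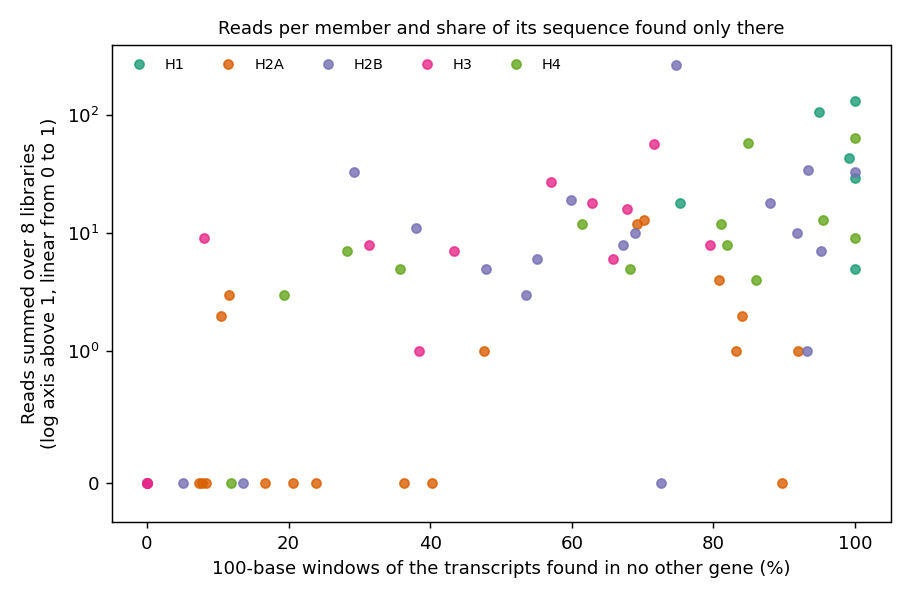
Reads summed over 8 libraries (vertical axis, log above 1) against the percentage of 100-base transcript windows found in no other gene (horizontal axis), 1 point per gene, colored by histone type. Genes at 0 gather at the left, and the 5 genes at 0% lie on one spot at 0 reads.

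The genes were also divided by the length of the annotated 3′ end. A long end was taken as at least 100 nt past the stem-loop, an AATAAA near the end, or a 3′ UTR of at least 100 nt without a stem-loop match. Of the 28 genes with a long end 3 were at 0, against 15 of the other 42, and the former held 63.2% of the member reads. Per kilobase of exon the order was the reverse, with 15.7 reads for long ends and 22.3 for the others. Within genes with at least 50% of windows of their own the values were 18.3 and 40.4. Longer ends add exon length to the denominator, so this is a description of density and not of transcript number.

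In this polyA-selected RNA, each of the 11 replication-independent histone variants had a higher level per length than any replication-dependent gene. The margin was small for the lowest variant, H2afj. The part of polyA selection in this difference was not tested. In RPKM over exon length, H2afz (H2A.Z) averaged 40.3, H2afx (H2A.X) 21.6, H3f3b (H3.3) 20.7, H3f3a (H3.3) 3.23 and H1f0 (H1.0) 2.42 over 8 libraries. On the same scale the highest replication-dependent genes were Hist1h2bc at 0.567 and Hist1h1a at 0.44. The variants ranged from 0.595 (H2afj) to 40.3. Of the 11 variants tested 2 rose in ΔTAM and none fell, beside 19.9% and 16% of all genes. H2afx, which marks DNA breaks when phosphorylated, rose from 17.8 ± 1.37 to 25.5 ± 0.886 RPKM (SD, n = 4 each; log2 fold change 0.52, SE 0.06, limma adjusted p = 4.2e-04). H3f3b rose by a log2 fold change of 0.40 (SE 0.05, limma adjusted p = 0.00104).

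**Figure D5:**
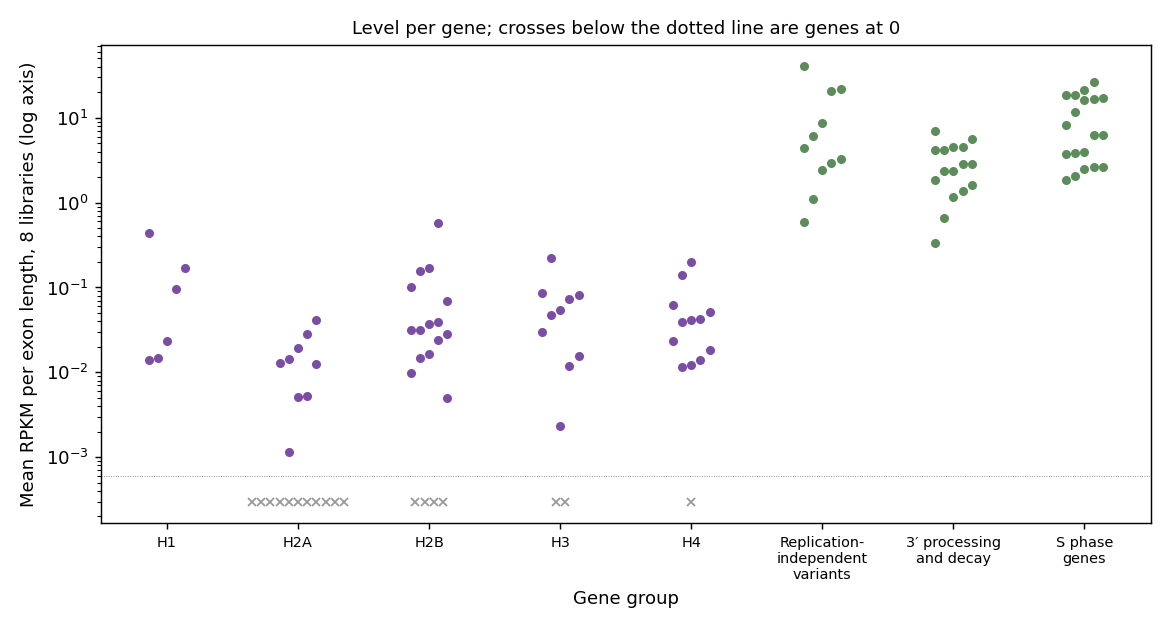
Mean RPKM per exon length over 8 libraries (vertical log axis) for each gene of the histone types and of 3 other gene groups (horizontal axis); crosses are genes at 0, and 2 genes of the processing list had no exon length. Every replication-dependent gene lies below the lowest variant, at 0.595.

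The genes that act on histone mRNA were measured well. Of 18 genes of 3′ processing and decay 2 rose and 3 fell, beside 19.9% of all genes tested higher and 16% lower, with a median log2 fold change of 0.01. Slbp, the stem-loop binding protein, rose from 0.73 ± 0.0456 to 0.906 ± 0.0708 RPKM (SD, n = 4 each; log2 fold change 0.28, SE 0.06, limma adjusted p = 0.01). Srrt, a cap-binding partner, rose by a log2 fold change of 0.47 (SE 0.04, limma adjusted p = 1.8e-04), and Sympk, a scaffold of the cleavage complex, fell by 0.16 on the log2 scale (SE 0.03, limma adjusted p = 0.00641). Lsm10 and Lsm11, proteins of the U7 particle, and Casp8ap2 had log2 fold changes of -0.09, -0.18 and -0.13 and were not called (limma adjusted p = 0.429, 0.118 and 0.442). On recovered reads Lsm11 was called lower, at -0.27 (SE 0.09, limma voom adjusted p = 0.0232). Leaving out each library gave Lsm11 a limma adjusted p of 0.0367 to 0.238.

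Of 9 tested genes of histone gene transcription 5 rose and none fell, beside the same 19.9% and 16% of all genes, with a median log2 fold change of 0.11. Ccne1, cyclin E1, rose by 0.33 (SE 0.04, limma adjusted p = 9.1e-04) and Nfya, a CCAAT-box factor, by 0.23 (SE 0.04, limma adjusted p = 0.00271). Npat, the coactivator that cyclin E and CDK2 phosphorylate at histone clusters, had a log2 fold change of 0.03 (SE 0.06, limma adjusted p = 0.757). Among 17 tested chaperones 6 rose and 1 fell (all genes 19.9% and 16%), with Anp32e at 0.20 (SE 0.02) and Rbbp7 at -0.22 (SE 0.02; limma adjusted p = 3.0e-04 and 2.7e-04), and 4 chaperones in all were called without WT replicate 2 or without ΔTAM replicate 3. Of 18 S phase genes tested 8 rose and 3 fell (all genes 19.9% and 16%), with Tyms at 0.40 (SE 0.03) and Mcm4 at 0.20 (SE 0.02; limma adjusted p = 1.4e-04 and 3.4e-04). No gene of these lists changed by 0.58 or more on the log2 scale.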

How the data were processed

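PolyA-selected RNA of 8 libraries was analysed. Per the methods and the submitters' notes, the authors removed rRNA reads with SortMeRNA, trimmed with Trimmomatic (0.36 in the notes, another version in the methods), aligned with STAR to mm10, counted exon coverage and deposited RPKM, which divides by the gene span. The annotation release, use of strand and treatment of multi-mapped reads are not given in the sources used here. Gene reads made up 14.8 to 15.0% of the library total in the deposited RPKM. Reads were recovered as whole steps (99.5% of values below 50 reads within 0.02 of a whole number, and all histone values). Of 51288 entries 386 repeated ones were set aside. The main test was limma (version 3.58.1, R version 4.3.3) applied to log2(RPKM + 0.1) of genes averaging 0.1 RPKM or more, two-sided, Benjamini-Hochberg over all genes, a call being an adjusted p under 0.05. Recovered reads were tested with limma voom (mean of at least 10 reads). Scripts were tested on simulated data. Intervals cover counting error only.

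Named genes were the 2 of each type with the highest mean RPKM, called members with a mean of at least 10 reads, and in each list the 2 with the smallest adjusted p and 10 preset genes. The members and lists were chosen with earlier results of these data known. The classes by annotated end and by shared windows, and the blocks of Hist1, were set after the values were seen and are described without a test. Alternatives changed the pseudocount, filter, scaling, variance model, block, libraries and unit.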

Additional observations from a re-analysis of the deposited data

Results flagged for a closer look

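In groups of 4, a library was picked out where its gap to the nearest other exceeded 0.829 of the group's range, and chance picks about 1 in 20 groups. Of 98 groups looked at, 9 had such a library. Summed reads on all histone genes were 21.9 RPM (reads in 1000000 gene reads) in ΔTAM replicate 1, above the other ΔTAM libraries. Hist4h4, the only Hist4 gene, was at 0 RPM in WT replicate 2 and at 0.597 RPM in ΔTAM replicate 1, on counts of 0 and 4 reads. Hist1h4i was at 0.122 RPKM in ΔTAM replicate 1, the lowest of its group, and Hist1h2al was at 0.0509 RPKM in ΔTAM replicate 4, on 1 read. Outside the members, H2afz was at 27.5 RPKM and T, a mesoderm marker, at 0.512 RPKM in ΔTAM replicate 1, both lowest in their group. Rbbp7 was at 2.84 RPKM in WT replicate 1 and Rpph1, an RNA without a polyA tail, at 2.93 RPKM in WT replicate 2, both highest in their group.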

How the results depend on the processing

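The depth limited most results, since 67 of the 70 genes averaged under 10 reads. Over all genes, 3228 were called, against 992 among genes averaging 1 RPKM or more and 5540 with voom on recovered reads, and 2619 to 3054 when each library was left out. Histone genes called lower numbered 1 (Hist1h4d), but 0 under the stricter filter of 1 RPKM, where no member was tested, 0 with voom, where Hist1h4d was not tested, and 0 to 1 when a library was left out. Histone genes called higher numbered 0, but 1 with voom (Hist1h1c, which passed that filter only through ΔTAM) and 0 to 1 when a library was left out. Without a filter 1 member was called lower, but it was Hist1h3f and not Hist1h4d. The median log2 fold change of the tested members stayed between -0.06 and 0.23 when each library was left out, and the log2 ratio of summed reads, an alternative added after seeing the data, between -0.15 and 0.02. Signs turned in results that were not called. Leaving out each library gave log2 fold changes of -0.0988 to 0.0921 for H1f0, -0.013 to 0.0839 for H2afz, -0.26 to 0.10 for Hist1h3c and -0.0187 to 0.0707 for Npat, and quantile normalization gave -0.0086 for H2afz. The cause was not tested.

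Whether replicate numbers pair the samples depended on the genes used. Correlations of same-numbered deviations were 0.0238 to 0.0624 over the 9002 genes tested. There WT replicates 1, 2 and 4 matched their own number best, and WT replicate 3 did not. Over the 2151 genes averaging 1 RPKM or more the correlations were 0.144 to 0.332, and each WT library matched its own number best. Both filters were tried. With the replicate block 2797 genes were called, 1 histone gene lower and 0 higher, and Hist1h4d had a limma adjusted p of 0.0172.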
